A study of Mus musculus with 4 samples.

Results

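Pigment and melanosome genes were read from the transcriptomes of cultured mouse keratinocytes (KCs), the cells that make up most of the epidermis. The group consists of 10 of the 25814 genes listed in each library, chosen by name for their place in melanocyte biology: Tyrp1, Dct, Tyr, Pmel, Mlana, Slc24a5, Kit, Mitf, Rab38 and Rab27a. The choice was made with earlier results of these data known. All 10 had reads in every library, and 9 passed the filter on low counts and were tested. The KCs came from the tails of adult 129/sv mice and were cultured untreated, without serum and at low calcium. Libraries of polyadenylated RNA were sequenced, 2 labelled Wildtype (WT) and 2 labelled Nfat5-Knockout, the donors of which lacked NFAT5, a transcription factor that responds to osmotic stress. Per the study's methods the WT mice were siblings of the Nfat5-/- mice and the tails travelled overnight on ice before the cells were prepared. The methods name no tissue to which the deletion was limited, and the paper describes the transcriptomes as those of 2 WT and Nfat5-/- sibling mice, without saying which animal gave which library. The series speaks of separate experiments for each genotype, but where libraries share animals or preparation the p-values measure a spread that may be technical.

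Melanocytes are the pigment cells that sit among the basal KCs of skin and in hair follicles. They make melanin inside melanosomes, organelles related to lysosomes, and pass these on to neighbouring KCs. The transcription factor MITF drives the pigment genes, in part through the M-box, an E-box element in their promoters. KCs send melanocytes growth and pigment signals, among them the ligand of the receptor KIT and endothelin.

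The promoter sequences of the 4 members that hold the core of the M-box are shown because this element is a sequence feature they share. The choice of genes used no sequence, but the M-box is an element of pigment gene promoters, so it was not independent of that choice. Each window runs from 250 bases before to 50 bases after the RefSeq start site, on GRCm38.p6, 5′ to 3′ on the strand of the gene. The windows are chr4:80833963-80834262 on the plus strand for Tyrp1, chr14:118052197-118052496 on the minus strand for Dct, chr7:87493463-87493762 on the minus strand for Tyr and chr2:125067877-125068176 on the plus strand for Slc24a5. Capitals mark the letters TCATGTG, or the same letters on the other strand.
Tyrp1: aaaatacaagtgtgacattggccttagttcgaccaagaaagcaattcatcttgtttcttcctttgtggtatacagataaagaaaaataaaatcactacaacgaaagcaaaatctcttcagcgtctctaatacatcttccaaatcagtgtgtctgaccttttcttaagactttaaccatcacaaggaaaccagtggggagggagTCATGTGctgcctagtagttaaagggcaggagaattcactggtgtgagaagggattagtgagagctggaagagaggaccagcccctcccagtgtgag
Dct: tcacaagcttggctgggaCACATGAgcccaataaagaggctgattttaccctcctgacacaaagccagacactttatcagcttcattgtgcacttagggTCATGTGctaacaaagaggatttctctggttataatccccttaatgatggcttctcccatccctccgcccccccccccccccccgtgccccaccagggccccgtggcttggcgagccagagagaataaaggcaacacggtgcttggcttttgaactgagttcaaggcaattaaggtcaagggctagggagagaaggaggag
Tyr: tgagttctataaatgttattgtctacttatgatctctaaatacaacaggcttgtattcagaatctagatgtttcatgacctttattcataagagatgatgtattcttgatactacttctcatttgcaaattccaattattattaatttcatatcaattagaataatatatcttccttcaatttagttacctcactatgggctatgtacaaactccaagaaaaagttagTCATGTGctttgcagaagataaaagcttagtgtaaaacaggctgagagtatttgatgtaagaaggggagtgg
Slc24a5: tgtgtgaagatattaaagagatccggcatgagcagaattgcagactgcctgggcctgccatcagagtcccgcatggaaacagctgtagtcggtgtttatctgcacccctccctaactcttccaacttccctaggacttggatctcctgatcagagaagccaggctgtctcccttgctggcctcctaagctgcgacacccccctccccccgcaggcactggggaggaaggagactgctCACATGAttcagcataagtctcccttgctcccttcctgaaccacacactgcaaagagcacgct

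The first base of the element lay 47 bases before the start site in Tyrp1, 22 bases before it in Tyr, and 151 bases before it in Dct. Dct held another copy on the other strand, 232 bases before the start, and the Slc24a5 copy was also on the other strand, 13 bases before the start. RefSeq windows matched 7 of the 10 members, and 4 of these 7 held TCATGTG. By window this was 4 of 11, against 3.8% of 32817 mouse windows of the same length searched on both strands. No window of Kit (2), Mitf (3) or Rab27a (2) held these letters. The shorter E-box CATGTG, which lies inside TCATGTG, was present in 14.2% of all windows and in no further member. The symmetric E-box CACGTG was found in 1 window, of Rab27a, and in 7.1% of all windows. The letters TGGAAA, the core that NFAT family proteins recognise, were in 1 window each of Slc24a5, Mitf and Rab27a and in 21.4% of all windows. A match describes letters in a window and is not a binding site, and the libraries hold no measure of binding.

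The libraries held between 16219445 and 23494436 gene reads, so that 3 reads, the lower limit used here, correspond to 0.128 to 0.185 CPM (gene reads scaled to library size). All 8 KC markers examined had reads in every library, and the basal keratins Krt5 and Krt14 together reached 10428 to 11976 RPKM (exon reads relative to exon length and library size). Nfat5 itself had 408 and 929 reads in WT compared with 715 and 770 in the libraries labelled Nfat5-Knockout. Its log2 fold change was 0.09 (SE 0.26, edgeR adjusted p 0.913), so its reads did not tell the labels apart. These are totals per gene, in which loss of some exons need not show, and each direction below rests on the labels. All log2 fold changes are Nfat5-Knockout over WT. Of the 12614 genes tested, 1.27% were called at an adjusted p under 0.05 in either direction and 0.325% were called lower in the libraries labelled Nfat5-Knockout.

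Among the pigment and melanosome genes, Tyrp1 was the only call, about 4-fold lower in the libraries labelled Nfat5-Knockout. Dct and Pmel had the next largest differences in the edgeR fit, and Rab38 was by far the most abundant member. These genes were lower in both Nfat5-Knockout libraries without passing the adjusted threshold. The 9 tested members had a median log2 fold change of -0.92 (range -2.04 to 0.27), beside -0.01 over all genes tested. In 8 the estimate was below 0 and in 1, Mitf, above it. The CPM of the groups did not overlap, with Nfat5-Knockout lower, in 7 of the 9, against 26.7% of all genes tested. An unadjusted edgeR p under 0.05 with a lower level was reached by 4 of the 9 (Tyrp1, Dct, Pmel and Rab38), against 6.47% of all genes. These counts describe a group picked by name, with earlier results of these data known, and are no test of it. Tyr entered only because its WT libraries passed the filter. Kit and Slc24a5 also needed a WT library to pass, since each had an Nfat5-Knockout library below the filter (0.298 and 0.483 CPM).

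**Figure D1:**
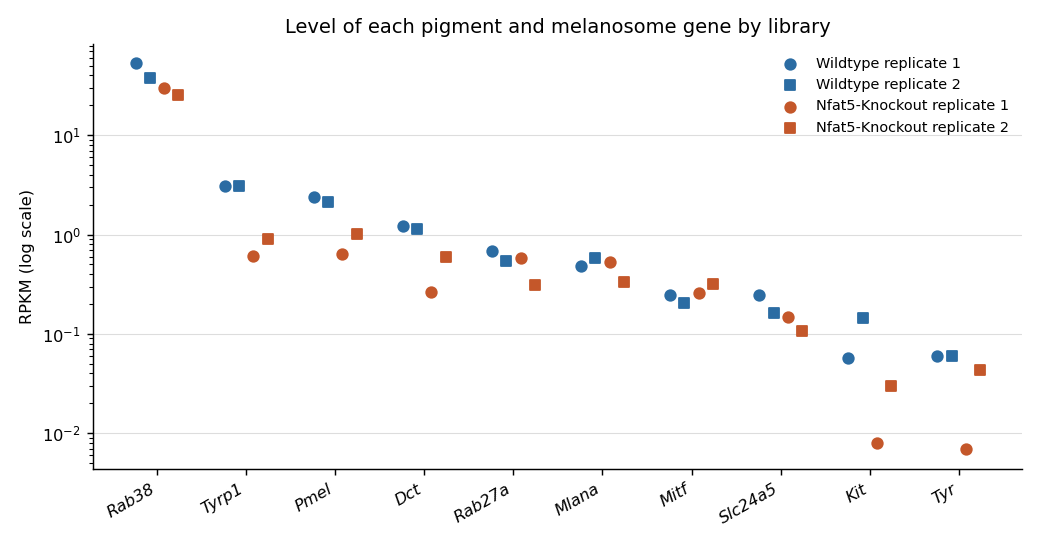
RPKM of the 10 members in each of the 4 libraries, on a log scale, ordered by the WT mean. Each point is 1 library (blue WT, orange Nfat5-Knockout). Within each library Rab38 lies more than 10 times above every other member, and the WT and Nfat5-Knockout points of Tyrp1, Pmel and Dct are apart.

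The levels spanned nearly 3 orders of magnitude. In WT the order of mean RPKM was Rab38 (45.3), Tyrp1 (3.10), Pmel (2.26), Dct (1.19), Rab27a (0.613), Mlana (0.531), Mitf (0.226), Slc24a5 (0.204), Kit (0.102) and Tyr (0.0598). The WT libraries of Rab27a and Mlana, of Mitf and Slc24a5, and of Kit and Tyr overlapped, so those neighbours were not separated. In the libraries labelled Nfat5-Knockout, Tyrp1 (0.755) came just below Pmel (0.820) with overlapping values, followed by Rab27a, Mlana, Dct and Mitf, each overlapping with the next. By the mean over all 4 libraries Rab38 ranked 1704 of 16176 genes with any RPKM, and Tyrp1 ranked 9142.

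The enzymes of melanin synthesis are the tyrosinase family: TYR starts the pathway from tyrosine, DCT converts dopachrome, and TYRP1 acts on the later indole intermediates. Tyrp1 (ENSMUSG00000005994, GRCm38 chr4:80834123-80851719, 14 exons) had 150 and 197 reads in WT compared with 42 and 49 in the libraries labelled Nfat5-Knockout. The RPKM values were 3.11 and 3.10 in WT against 0.602 and 0.908. The WT libraries nearly coincided, and the higher Nfat5-Knockout library stayed far below both. Tyrp1 fell by 2.04 on the log2 scale (SE 0.25, 95% interval -2.63 to -1.46, edgeR adjusted p 0.0203), a 4.13-fold lower level. Of its reads only 1.83% were intronic and every exon read was placed at a single site, and reads across exon junctions numbered 24 and 32 in WT against 6 and 5. The call was lost when either Nfat5-Knockout library was left out, with an edgeR adjusted p of 0.0939 without replicate 1 and 0.0800 without replicate 2, while the log2 fold changes were -1.76 and -2.35. In a bulk culture, fewer cells of a type and less RNA per cell cannot be told apart.

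Dct (chr14:118012790-118052244, 8 exons) had 56 and 76 reads in WT compared with 18 and 27 in the libraries labelled Nfat5-Knockout, or 1.23 and 1.15 RPKM against 0.264 and 0.595. The groups did not overlap, but the Nfat5-Knockout libraries differed from each other by more than the WT libraries did. The log2 fold change was -1.65 (SE 0.37, 95% interval -2.51 to -0.79) and did not pass the threshold (edgeR adjusted p 0.0923). Tyr (chr7:87424771-87493512, 7 exons) was near the limit of detection, with 9 and 11 reads in WT compared with 3 and 7 in the libraries labelled Nfat5-Knockout, of which 33.3% were intronic. Its log2 fold change of -1.10 had an interval from -2.59 to 0.39 (edgeR adjusted p 0.484), so neither no difference nor a difference as large as that of Tyrp1 lay outside it. Summed over the 3 enzymes, the level was 4.39 and 4.31 RPKM in WT compared with 0.873 and 1.55 in the libraries labelled Nfat5-Knockout, and most of it was Tyrp1.

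The structural and transport proteins of the melanosome gave a mixed picture. PMEL forms the fibrils on which melanin is laid down. Pmel (chr10:128704195-128720238, 16 exons) had 106 and 122 reads in WT compared with 47 and 54 in the libraries labelled Nfat5-Knockout, or 2.41 and 2.11 RPKM against 0.634 and 1.01. The groups were apart, with an estimate of -1.30 on the log2 scale (SE 0.27, 95% interval -1.93 to -0.67, edgeR adjusted p 0.0772). Pmel overlaps Cdk2 and Dgka, on the opposite strand, at its ends, and no source used here says that strand was used in counting. These neighbours had log2 fold changes of -0.31 (Cdk2, edgeR adjusted p 0.332) and -0.14 (Dgka, edgeR adjusted p 0.660), while junction reads of Pmel numbered 25 and 20 in WT against 9 and 9. Pmel passed the threshold without WT replicate 2 (edgeR adjusted p 0.0422) and by DESeq2 (adjusted p 0.0336), while without any of the other libraries its edgeR adjusted p was between 0.121 and 0.247.

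Mlana (chr19:29697921-29708448, 5 exons) encodes a small melanosomal membrane protein that assists PMEL. It had 6 and 8 reads in WT compared with 12 and 6 in the libraries labelled Nfat5-Knockout, and its RPKM values, 0.483 and 0.580 against 0.533 and 0.336, overlapped. It failed the filter on low counts. The ratio of pooled CPM, Nfat5-Knockout over WT, was 1.15 with a 95% counting interval of 0.542 to 2.51, which a fall as large as that of Tyrp1 lies outside of as far as counting error goes. The difference between the fold changes of both genes was not tested.

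Slc24a5 (chr2:125068124-125088677, 9 exons) encodes a cation exchanger of the melanosome. It had 14 and 28 reads in WT compared with 17 and 9 in the libraries labelled Nfat5-Knockout, or 0.246 and 0.162 RPKM against 0.149 and 0.107, with a log2 fold change of -0.82 (95% interval -1.84 to 0.21, edgeR adjusted p 0.446). These values are uncertain: 61.8% of the reads were intronic, only 13 of the 26 exon reads were placed at a single site, and the gene overlaps Myef2 on the opposite strand, which had a log2 fold change of -0.07.

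**Figure D2:**
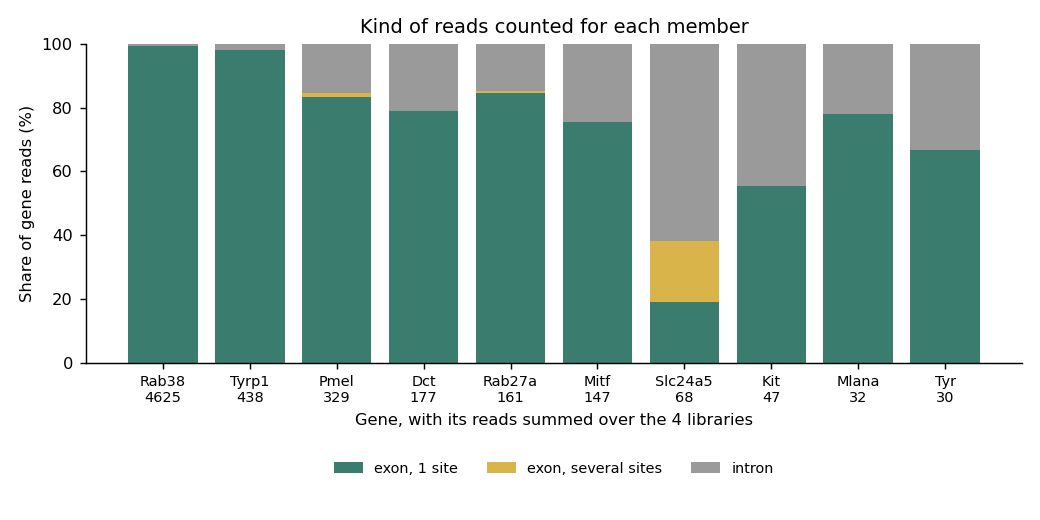
Share of the reads of each member that lay in exons at 1 site, in exons at several sites or in introns, summed over the 4 libraries, with the number of reads under each gene. Almost all reads of Rab38 and Tyrp1 were exonic, whereas 61.8% of the Slc24a5 reads and 44.7% of the Kit reads lay in introns.

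The regulators of the lineage were at low levels. MITF is the transcription factor that activates the pigment enzymes, and KIT is the receptor through which KC-derived ligand keeps melanocytes alive, which mast cells carry too. Mitf (chr6:97807052-98021349, 23 exons) had 32 and 31 reads in WT compared with 42 and 42 in the libraries labelled Nfat5-Knockout, or 0.249 and 0.204 RPKM against 0.258 and 0.315. The groups barely separated in RPKM and overlapped in CPM. The log2 fold change was 0.27 (SE 0.33, 95% interval -0.51 to 1.05, edgeR adjusted p 0.761), an interval that does not reach the estimate of Tyrp1, Dct or Pmel. Kit (chr5:75574916-75656722, 23 exons) had 12 and 18 reads in WT compared with 7 and 10 in the libraries labelled Nfat5-Knockout, or 0.0573 and 0.146 RPKM against 0.00790 and 0.0299. Both WT levels were above the Nfat5-Knockout levels, but the log2 fold change of -0.92 had an interval from -2.07 to 0.23 (edgeR adjusted p 0.445). Intronic reads made up 44.7%. The ratio of mean RPKM, WT over Nfat5-Knockout, was 5.38 on 26 exon reads, against 1.89 for all gene reads in the fit. For 5 of 7 mast cell markers (Cpa3, Tpsb2, Mcpt4, Fcer1a and Hdc) no exon read was found in any library. The list summed to 0 to 0.0575 RPKM. Cpa3 did have 11 and 19 reads in WT compared with 16 and 12 in the libraries labelled Nfat5-Knockout, all of them intronic.

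RAB38 and RAB27A are small GTPases of vesicle traffic: RAB38, with the related RAB32, brings the pigment enzymes to the maturing melanosome, and RAB27A tethers the mature organelle to actin through melanophilin and myosin Va. Rab38 (chr7:88430273-88491572, 6 exons) had 1399 and 1322 reads in WT compared with 1141 and 763 in the libraries labelled Nfat5-Knockout. Its RPKM values were 53.0 and 37.7 in WT against 29.99 and 25.1, apart in each library though the WT libraries differed widely. The log2 fold change was -0.70 (SE 0.17, 95% interval -1.11 to -0.29, edgeR adjusted p 0.126). It depended on the WT library: without WT replicate 2 it was -0.93 and passed the threshold (edgeR adjusted p 0.00896), and without WT replicate 1 it was -0.42 (edgeR adjusted p 0.275). DESeq2 also called it (adjusted p 0.0198). Rab27a (chr9:73044854-73097629, 9 exons) had 45 and 42 reads in WT compared with 50 and 24 in the libraries labelled Nfat5-Knockout. The RPKM values, 0.683 and 0.542 against 0.577 and 0.314, overlapped, with a log2 fold change of -0.42 (95% interval -1.27 to 0.42, edgeR adjusted p 0.651).

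**Figure D3:**
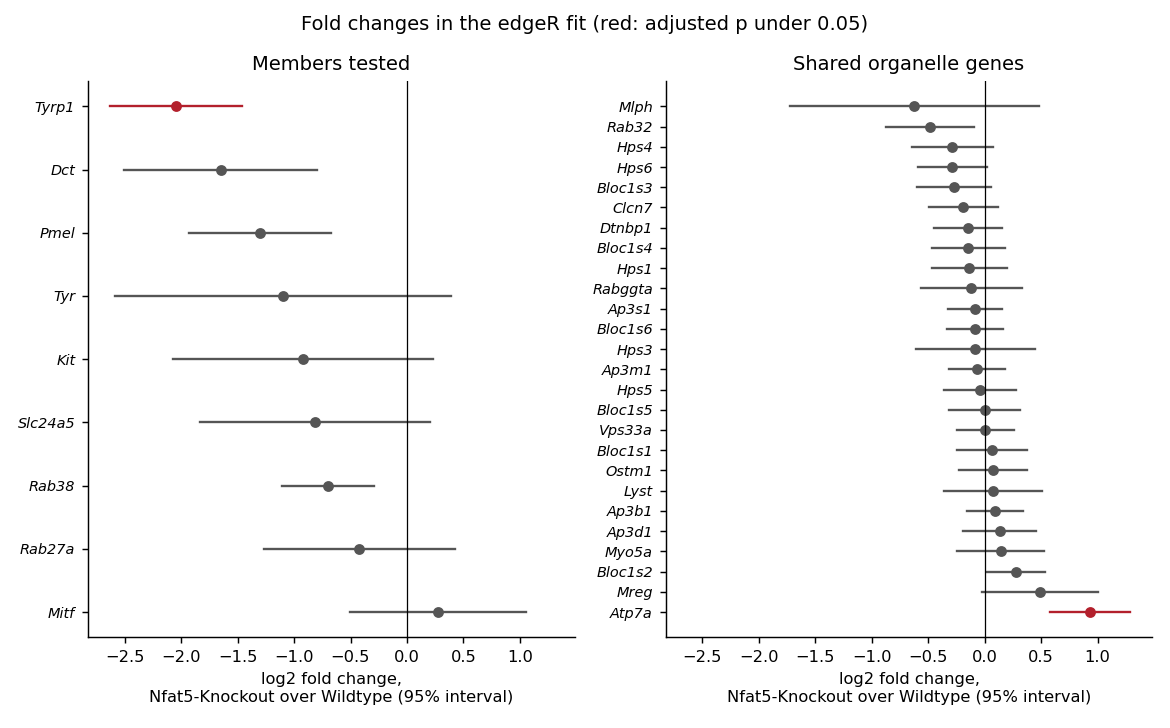
Log2 fold changes (Nfat5-Knockout over WT) with 95% intervals in the edgeR fit for the 9 tested members and for 26 genes of the organelle machinery that many cell types share. Tyrp1 (-2.04) and Atp7a (0.93), in red, had an adjusted p under 0.05, and most intervals of the shared machinery include 0.

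Within each library the members were also set against Tyrp1, as ratios of RPKM, which removes differences in depth. Dct stood at 0.396 and 0.371 of the Tyrp1 level in WT and at 0.439 and 0.655 in the libraries labelled Nfat5-Knockout. The ratio of Pmel was 0.777 and 0.681 against 1.05 and 1.11. Both ratios were thus higher in the libraries labelled Nfat5-Knockout, but by less than those of Mitf or Rab38. Mitf stood at 0.0801 and 0.0658 of Tyrp1 in WT and at 0.428 and 0.347 in the libraries labelled Nfat5-Knockout. For Rab38 the ratio was 17.1 and 12.2 in WT compared with 49.8 and 27.7 in the libraries labelled Nfat5-Knockout. Since the ratios share the lower Tyrp1 level in the denominator, a gene that did not differ between the groups would also come out higher in the libraries labelled Nfat5-Knockout. The ratios describe the members' proportions and were not tested.

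**Figure D4:**
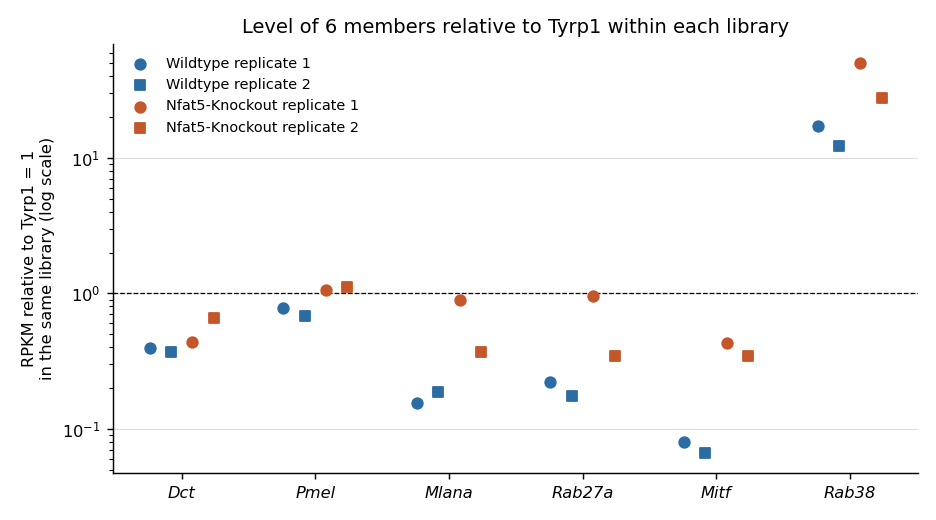
RPKM of 6 members relative to Tyrp1 in the same library, on a log scale (blue WT, orange Nfat5-Knockout, 1 point a library). Dct and Pmel stay between 0.371 and 1.11 in all libraries, while Rab38 lies at 12.2 to 49.8 and Mitf moves from below 0.1 to above 0.3.

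To see which genes had a pattern like that of Tyrp1, the tested genes were ranked by the distance between their centred log2 CPM values over the 4 libraries. The 5 nearest were Tcfl5, Unc79, Guca1a, Nrn1 and Gm11146, and Dct came next at rank 6 of 12613. Tcfl5 had 2.00 and 2.13 RPKM in WT compared with 0.299 and 0.471 in the libraries labelled Nfat5-Knockout. Nrn1 had 3.02 and 3.45 RPKM against 0.905 and 1.02. Gm11146 had no exon read, so its place in the ranking rests on intronic reads. Of the other members, Pmel ranked 20, Tyr 98, Kit 138, Rab38 343, Slc24a5 450, Rab27a 1828 and Mitf 10367. The distance takes in the size of a change as well as its shape. Genes of low level, such as Unc79 (0.00896 to 0.130 RPKM), Tyr and Kit, have uncertain places in it. The order describes likeness over 4 libraries and was not tested.

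Further melanocyte genes were largely below the filter. Of 12 others examined, only Gpnmb, a glycoprotein that macrophages express too, was tested (log2 fold change 0.43, edgeR adjusted p 0.488). Sox10, a transcription factor of melanocytes and Schwann cells, had 10 and 9 reads in WT compared with 1 and 3 in the libraries labelled Nfat5-Knockout. Pax3, which acts with it on Mitf, had 6 and 6 reads in WT compared with 5 and 8 in the libraries labelled Nfat5-Knockout. The low counts of Sox10 were apart between the groups and those of Pax3 were not. Gpr143, a receptor of the melanosome membrane, had no exon read in any library.

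The organelle machinery that melanosomes share with other lysosome-related organelles was measured throughout. All 26 genes of this list, subunits of the BLOC, HPS and AP-3 complexes and partners of RAB proteins among them, were tested, with a median log2 fold change of -0.07, 15 estimates below 0 and 11 above. The groups did not overlap in 11 with Nfat5-Knockout lower and in 3 with Nfat5-Knockout higher, while 47.5% of all genes tested did not overlap in either direction. Atp7a, the copper pump that supplies tyrosinase and other copper enzymes, was the only call. It rose from 1.80 and 1.99 RPKM in WT to 3.46 and 3.77 RPKM, 0.93 on the log2 scale (SE 0.15, edgeR adjusted p 0.0404). Rab32 had the highest mean level of the list over all 4 libraries, with 55.7 and 62.6 RPKM in WT compared with 49.4 and 34.2 in the libraries labelled Nfat5-Knockout (log2 fold change -0.48, edgeR adjusted p 0.255). In the libraries labelled Nfat5-Knockout, Bloc1s2 (49.1 and 46.5 RPKM) had the higher mean. The Rab32 level was of the same order as that of Rab38. Mlph, which encodes melanophilin, had the lowest mean, with 0.263 and 0.122 RPKM against 0.121 and 0.109 (log2 fold change -0.62, edgeR adjusted p 0.600).

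Of the signals that reach melanocytes from KCs, 7 genes were examined and 2 were tested. Edn1, which encodes endothelin 1, had 26.2 and 38.0 RPKM in WT compared with 53.5 and 64.4 in the libraries labelled Nfat5-Knockout, without overlap (log2 fold change 0.88, SE 0.19, edgeR adjusted p 0.0838). Kitl, the ligand of KIT, had 1.70 and 1.03 RPKM in WT compared with 1.61 and 1.32 in the libraries labelled Nfat5-Knockout (log2 fold change 0.10, 95% interval -0.51 to 0.70, edgeR adjusted p 0.902). Thus the levels of the Edn1 groups were apart and those of Kitl overlapped. Edn3 had no read in any library.

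The levels were then set beside markers of the cells a tail culture can hold. The 13 melanocyte markers, which include 6 of the members, summed to 7.94 and 7.50 RPKM in WT and to 2.33 and 3.20 in the libraries labelled Nfat5-Knockout. The groups were apart in RPKM and lower in 7 of the 13 (5 of these 7 are members), against 22.1% of the 16176 genes with any RPKM, and 9 of the 13 had reads in every library. Without the members, the remaining 7 markers reached 0.399 and 0.347 RPKM in WT compared with 0.142 and 0.207 in the libraries labelled Nfat5-Knockout. Of this sum Sox10 alone, at few reads, was 0.216 and 0.146 RPKM in WT against 0.0149 and 0.0565, and only Sox10 and Oca2 of the 7 were apart. KC markers did not share this difference: none of the 8 was called in the edgeR test, 1 (Itga6, lower) reached an unadjusted p under 0.05, and their summed level of 11852 to 13836 RPKM overlapped between the groups.

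Another list moved the opposite way. The smooth muscle markers Acta2, Tagln and Cnn1 rose in the edgeR test, in which 0.943% of all genes were called higher. Myh11 was called too, but it entered only because its Nfat5-Knockout libraries passed the filter. The list of 5 summed to 184 and 151 RPKM in WT and to 518 and 819 in the libraries labelled Nfat5-Knockout. Most of that sum was Acta2, while Myh11 had 1 and 1 reads in WT against 22 and 40, and Des was at 0 reads in 3 of the 4 libraries. Schwann cell markers summed to 10.4 to 13.4 RPKM, with overlap between the groups, but nearly all of that sum was Mbp and Erbb3. Among the others reported here, S100b, Foxd3 and Sox10, which is also on the melanocyte list, were apart and lower in RPKM, at low counts. Fibroblast markers summed to 0.409 to 1.13 RPKM and overlapped. Leukocyte and Langerhans cell markers (2.08 to 3.73 RPKM) overlapped as well. Endothelial markers were at 0.751 and 0.691 RPKM in WT against 0.528 and 0.675, and Merkel cell markers at 0 and 0.0414 against 0.124 and 0.109, with Atoh1 at 0 reads throughout. The part of any of these cells in the levels of the pigment genes was not tested.

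**Figure D5:**
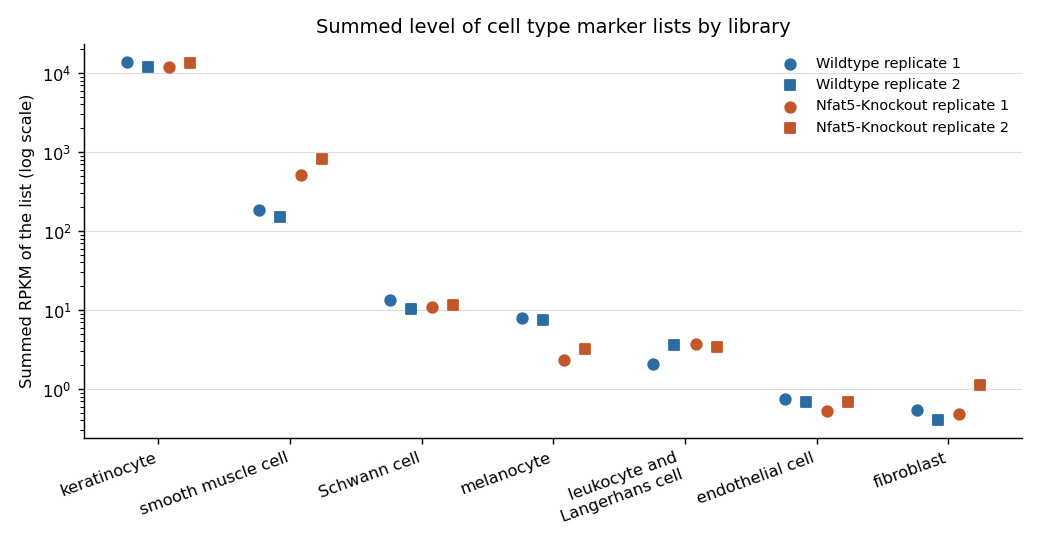
Summed RPKM of marker lists of 7 cell types in each library, on a log scale (blue WT, orange Nfat5-Knockout). The melanocyte sum is lower in the libraries labelled Nfat5-Knockout (2.33 and 3.20 against 7.94 and 7.50), the smooth muscle sum is higher, the endothelial sum is slightly lower, and the other sums overlap, that of Schwann cells through Mbp and Erbb3.

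Per gene, the level relative to these references differed widely. Rab38, at 25.1 to 53.0 RPKM, exceeded the summed melanocyte markers of the same library in all 4 libraries, while its log2 fold change (-0.70) was nearer to 0 than that of Tyrp1 (-2.04). Mitf, Rab27a and Mlana overlapped between the groups in CPM, unlike Tyrp1. Whether the RNA of a member came from melanocytes or from KCs was not tested, since the libraries were made from whole cultures and no measure of single cells was used here.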

How the data were processed

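RNA from 4 libraries was aligned to GRCm38 in CLC Genomics Workbench, where the authors also counted reads. The deposited tables give raw read counts per gene (exon, intron, exon junction) and RPKM, scaled by the authors to exon length and mapped reads and written with decimal commas. RPKM served to describe levels, and total gene reads to test. The test was edgeR 4.0.16 in R 4.3.3: filterByExpr, TMM factors (0.980 to 1.01), and a quasi-likelihood fit of genotype over all 12614 genes, with Benjamini-Hochberg adjustment and a threshold of 0.05. An SE is the log2 fold change divided by the square root of F, and its 95% interval uses the t distribution. Counting intervals and the floor of 3 reads cover counting error only, since no molecular identifiers were used. The software divided reads with several matching sites among them, and use of strand is not stated. Groups and replicate numbers came from sample titles. All members are named; of the other lists, genes past the threshold and those with the largest or smallest mean RPKM are, plus the 5 genes nearest to Tyrp1. Sox10, Pax3, Gpr143, Edn1, Kitl, Edn3, Gpnmb, Bloc1s2 and the marker genes were named after their values were seen. The members and lists were chosen with earlier results of these data known. Promoters came from RefSeq (GRCm38.p6), where Pmel, Mlana and Rab38 were not matched. The fit was tested on simulated data, where false calls exceeded the threshold's share with changes planted, and none was made without. Alternatives were DESeq2 1.42.0, limma-trend 3.58.1 on log2(RPKM + 1) and log2(RPKM + 0.1), other scalings, filters and read classes, a replicate block and each library left out. A further signalling gene was not analysed here, and some marker genes are not reported here.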

Additional observations from a re-analysis of the deposited data

How the results depend on the processing

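Over all alternatives, the 160 genes and 1 member past the threshold stayed within 1.5 times of those counts with RLE factors, library totals, a minimum of 10 reads in every library, exon reads, uniquely placed exon reads and limma-trend on log2(RPKM + 0.1). Without the filter on low counts 1137 genes and 4 members (Tyrp1, Dct, Pmel and Rab38) passed, by DESeq2 426 genes and 3 members (Tyrp1, Pmel and Rab38), and by limma-trend on log2(RPKM + 1) 159 genes and 2 members (Tyrp1 and Pmel). Leaving out 1 library at a time gave 16 to 478 genes and 0 to 3 members, with no member left without either Nfat5-Knockout replicate and 3 without WT replicate 2. These fits assume that the lone library of a group varies like the others. The causes were not tested. No member changed direction under any alternative that tested it: the log2 fold change of Tyrp1 ranged from -2.35 to -1.23 and passed in 13 of 15, Dct from -2.17 to -0.62, Pmel from -1.60 to -0.85, Rab38 from -0.93 to -0.42 and Mitf from 0.05 to 0.52. Tyr ranged from -2.00 to -0.45, Kit from -1.38 to -0.51, Slc24a5 from -1.13 to -0.48 and Rab27a from -0.82 to -0.14. Mlana was tested in 3 of the alternatives (0.21 to 0.46, edgeR adjusted p 0.940 without the filter).

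The labels do not say whether the replicate numbers pair the libraries. The deviations of same-numbered libraries from their group means had a correlation of -0.12 over 11899 genes. With 2 libraries per group, this value cannot decide whether they were paired. With the number as a block, 132 genes and 1 member passed, and no member changed its side of the threshold. With the numbers crossed, an alternative added after the data were seen, 1142 genes and 4 members passed. Members with fewer than 20 reads a library (Mlana, Tyr, Kit and largely Slc24a5) allow only wide intervals at this depth.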
